A study of Mus musculus with 8 samples.

Results

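Liver RNA of male (XY) mice in which the Lbr gene lacks its first coding bases (NT-KO) was compared with that of male wild-type mice (WT). The members are the 4 male libraries among the 8 liver libraries of the study, 2 NT-KO and 2 WT, chosen by the genotype and sex in their labels, and 13117 genes with at least 1 CPM (counts scaled to library depth) in at least 2 of the 8 libraries were tested. All groups are labelled C57BL/6, given as C57BL/6N in the study's methods, and were sampled after weaning, and the labels name no treatment. NT-KO mice were homozygous for the deletion, WT mice carried no edited allele, and the female WT and female NT-KO libraries, 2 of each, serve here only for comparison. The allele came from 1 CRISPR/Cas9-edited male founder, backcrossed to C57BL/6N females and kept by intercrossing heterozygotes, so that a single edited chromosome stands for the genotype and is deleted in every tissue. The labels do not say whether the 2 male livers of a group came from separate litters, and p-values measure only the spread between these libraries.

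The lamin B receptor LBR is a protein of the inner nuclear membrane. Its N-terminal part, which lies inside the nucleus, binds B-type lamins and heterochromatin, and its membrane-spanning part is a sterol reductase that acts late in cholesterol synthesis. In white blood cells its loss is known for changing the shape of the nucleus. Male and female livers of the mouse differ in many genes of drug, steroid and lipid metabolism, a difference set largely by the pattern of growth hormone release. Hepatocytes also export much of the plasma protein, and their endoplasmic reticulum (ER) therefore depends on chaperones that rise with the folding load.

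The deletion takes the end of intron 1 and the start of exon 2 of Lbr (ENSMUSG00000004880, minus strand of chromosome 1). On GRCm38 exon 2 runs from 181838378 to 181838556. The exon bases that are lost, 57 in all at chr1:181838500-181838556, comprise 14 untranslated bases and the first 43 coding bases. They are printed 5′ to 3′ on the coding strand, from the GENCODE transcript Lbr-201, to show what the NT-KO allele lacks, with the start codon in capitals.
Lbr exon 2, lost bases: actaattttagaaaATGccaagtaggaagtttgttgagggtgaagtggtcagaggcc
The next ATG codons in the same frame of this transcript are codons 118 and 149. The counts are per gene and do not show where along Lbr the reads lie, so the lost bases themselves could not be checked.

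Lbr had 453 and 277 counts in male WT against 627 and 714 in male NT-KO. Both NT-KO libraries were above both WT libraries, at 14.3 ± 0.653 CPM (SD, n = 2) against 7.87 ± 1.12 CPM, where CPM are scaled to the reads of the tested genes by TMM. The log2 fold change was 0.86 (SE 0.168), and its FDR in edgeR was 0.167 by quasi-likelihood and 0.0144 by likelihood ratio. In the leave-one-out fits it ranged from 0.72 to 1.01.

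The livers were recognisable as liver in every library. The 10 hepatocyte marker genes, of which albumin (Alb) was the most abundant, summed to 136801 and 95703 CPM on the same scale in male WT against 111328 and 119667 in male NT-KO. Markers of pancreatic acinar cells were absent for 6 of 9 genes in all male libraries (Prss2, Cela3b, Cpb1, Pnlip, Amy2b and Ctrb1), and all 9 summed to 30.8 to 42.2 CPM, mostly from Cela1.
The 11 B lymphocyte and plasma cell markers summed to 12.5 and 15.4 CPM in male WT against 53.0 and 83.3 CPM in male NT-KO, with Ighm, the immunoglobulin mu heavy chain, as the most abundant over the 4 libraries. That place came from the 52.0 CPM of NT-KO replicate 2, and Igkc, the kappa light chain, was the higher one in WT replicate 2 and NT-KO replicate 1. The 8 erythroid markers, led by the haemoglobin chain Hbb-bs, summed to 1028 and 483 CPM in WT against 404 and 402 CPM in NT-KO, with WT replicate 1 far above the rest and no marker passing either test. In bulk liver, fewer cells of a type and less RNA per cell cannot be told apart.

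Single libraries also stood apart from their replicate. Male WT replicate 2 was the highest male library in ER chaperone and acute phase genes, male WT replicate 1 had 2196 counts of Myc against 101 to 168 in the other male libraries, and male NT-KO replicate 2 was the highest in cholesterol and fatty acid synthesis genes. Log2 levels more than 1 apart separated the WT replicates at 649 genes and the NT-KO replicates at 775 genes, against 785 to 1118 genes for the 4 pairs of a WT and an NT-KO library. Total counts were 61202769 and 45020377 in WT against 50612282 and 53127151 in NT-KO. The results below are therefore given per library, and with the range obtained when 1 library is left out where that range changes the reading.

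Across all tested genes, the male genotypes differed by the main test in 2 genes, the glutathione transferase gene Gstp3, which rose, and the chemokine receptor gene Ccr3, which fell. This is 0.0152% of the 13117 genes (edgeR's quasi-likelihood F-test on all 8 libraries, FDR at most 0.05 and absolute log2 fold change over 1). Without adjustment 11.5% of genes had a p under 0.05, 6.03% of all genes being higher and 5.5% lower. The likelihood ratio test, which treats the spread as known and is the usual test after the model function that the study's methods name, gave 205 differentially expressed genes (DEGs), or 1.56%. Its FDR alone was met by 1.94%. Of the 205, 108 were higher (0.823%) and 97 lower (0.739%), and DESeq2 gave 218 (1.66%), of which 184 were shared with the 205. The balance of the 2 directions turned on single libraries. Lower DEGs were the more numerous without male WT replicate 1, and higher DEGs without male NT-KO replicate 1. In what follows a gene said to pass the likelihood ratio test alone did not pass the main test.

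The higher and lower sets were unlike in abundance. Among the 108 higher DEGs of the likelihood ratio test, 58 had a mean of under 5 CPM in the male libraries, and their median level was 4.01 CPM. Among the 97 lower DEGs only 28 were that low, with a median of 15.4 CPM, and of all tested genes 3769 were under 5 CPM. A log2 change of more than 2 in size was found in 29 of the higher and 37 of the lower genes. All 205 had NT-KO and WT libraries that did not overlap, which was so for 38.9% of all tested genes, 19.6% higher and 19.2% lower. Of the 205, 166 (81%) were protein-coding, against 90% of all tested genes, and 10 (4.88%, against 3.29%) were processed pseudogenes, whose reads can come from the parent gene.

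**Figure D1:**
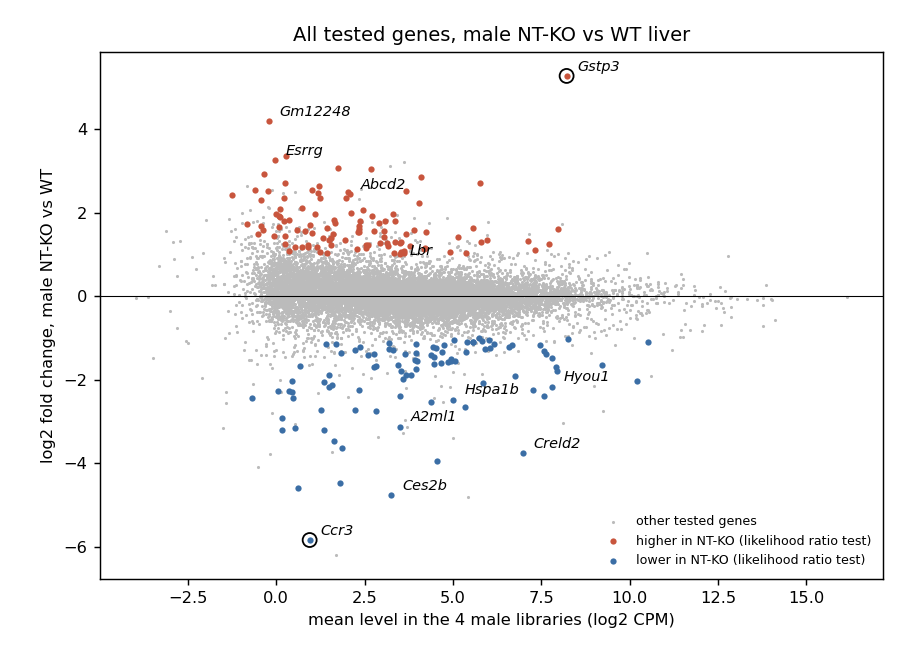
Each point is one tested gene, with the mean level in the 4 male libraries (log2 CPM) on the horizontal axis and the fitted log2 fold change of male NT-KO vs WT on the vertical axis. Coloured points passed the likelihood ratio test and the fold threshold, the ringed points Gstp3 (5.28) and Ccr3 (-5.84) also passed the quasi-likelihood test, and 19 genes with at most 3 counts in every library of a male group are not drawn.

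These DEGs did not move together in females of the same genotypes, whose libraries are not part of the male comparison. The 108 genes that were higher in males had a median female log2 fold change of 0.04, with 55 higher and 52 lower in female NT-KO. In 14.8% of them both female NT-KO libraries were above both WT libraries and in 21.3% below, against 12.2% and 14.2% of all tested genes. The 97 lower genes had a female median of 0.002, with 49 higher and 48 lower. In females the quasi-likelihood test gave 1 DEG (0.00762%), Ccr3, with 1.55% of genes at an unadjusted p under 0.05, and the likelihood ratio test gave 11 (0.0839%).

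The gene with the smallest p was Gstp3, on chromosome 19, a pi-class enzyme that couples glutathione to reactive compounds. It had 946 and 460 counts in male WT against 32426 and 21560 in male NT-KO, 38.8-fold more by the fit, and 1420 to 1841 counts in all 4 female libraries. The groups were far apart, and both male NT-KO libraries were also far above the females. The other 11 of the 12 higher genes named by rule did not pass the quasi-likelihood FDR, which ran from 0.0598 to 0.155 among them, and all passed the likelihood ratio test.

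Ppp1r9a, which encodes the actin-binding protein neurabin-1, had 497 and 384 counts in WT against 1339 and 1313 in NT-KO, with a log2 difference of 1.55 (SE 0.174, quasi-likelihood FDR 0.0598 in edgeR). Leave-one-out values ranged from 1.49 to 1.61.
Abcd2, a transporter of very long chain fatty acids into peroxisomes, had 67 and 53 counts in WT against 326 and 348 in NT-KO. Its levels were 1.32 ± 0.0524 and 7.18 ± 0.000273 CPM (SD, n = 2), and its log2 fold change was 2.45 (SE 0.285, quasi-likelihood FDR 0.0598 in edgeR). The lack of overlap between genotypes in these genes is part of the rule that named them.
Prlr, the prolactin receptor, had 1856 and 1401 counts in WT against 3713 and 4780 in NT-KO, with a log2 fold change of 1.34 (SE 0.175). Esrrg, an orphan nuclear receptor related to the oestrogen receptors, rested on few reads, with 12 and 5 counts in WT against 62 and 106 in NT-KO (log2 fold change 3.26, SE 0.447).

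The remaining higher genes were Tnfaip8l3, which encodes a carrier of phosphoinositide lipids, Ehbp1l1, an adaptor of endosomal membranes, the cytochrome P450 gene Cyp2g1, the X-linked gene Tmem28, and 3 transcripts of uncertain function. Tmem28 had 30 and 28 counts in WT against 146 and 232 in NT-KO, with a log2 difference of 2.64, while female WT had 2 and 7 counts and each female NT-KO library 13. Of the 12 genes it was the one whose female log2 fold change was over 1, at 1.53 from these few counts. Gm12248 (5 and 3 counts in WT, 94 and 58 in NT-KO) and the processed pseudogene Gm12247 (59 and 52 counts, against 383 and 269) lie side by side on chromosome 11, from 58063552 to 58093134 and from 58097104 to 58097773 of GRCm38. Both were higher in each NT-KO library by several fold, and in females Gm12248 had at most 4 counts. The antisense RNA 4732463B04Rik had 38 and 17 counts in WT against 119 and 208 in NT-KO, but 29.4% of its 50-base stretches are found in further genes, chiefly Acot3, so its reads are uncertain.

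**Figure D2:**
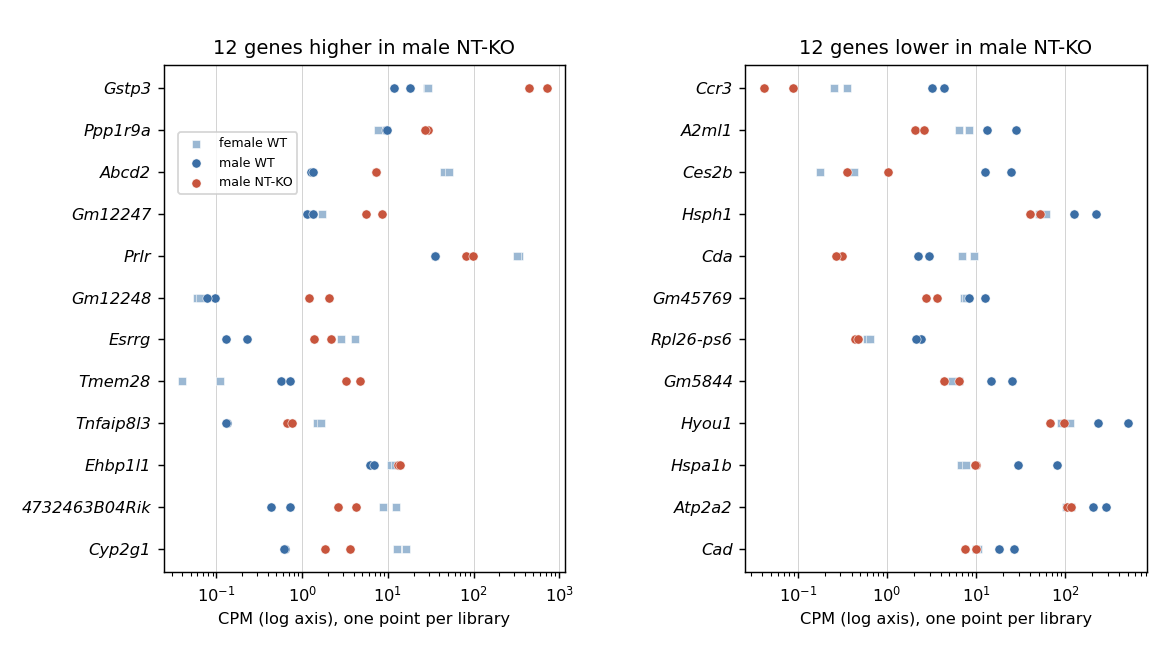
CPM of each library on a log axis for the 12 higher (left) and 12 lower (right) genes with the smallest quasi-likelihood p among genes with a log2 fold change over 1 in size and no overlap between male genotypes. Blue circles are male WT, red circles male NT-KO and pale squares female WT. The red and blue circles lie apart for each gene by that rule. The female WT squares lie above both male groups for the higher genes Abcd2, Prlr, Esrrg, Tnfaip8l3, 4732463B04Rik and Cyp2g1 and the lower gene Cda.

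Among the lower genes, Ccr3, a receptor for eotaxins that is best known from eosinophils, fell from 228 and 126 counts in male WT to 4 and 2 in male NT-KO (log2 fold change -5.84, SE 0.440, quasi-likelihood FDR 0.00539 in edgeR). The eosinophil markers Epx and Ear6 had no count in the male libraries, and without Ccr3 the other 8 markers of these cells summed to 1.82 and 2.50 CPM in WT against 1.21 and 1.92 CPM in NT-KO, which overlap. The FDR of Ccr3 was 0.0535 without male NT-KO replicate 2, just over the threshold.
A2ml1, an inhibitor of proteases, was lower too, with 699 and 1079 counts in WT against 94 and 127 in NT-KO, as was the unclassified transcript Gm45769, which lies on the same chromosome, with 431 and 488 against 166 and 133. These were the 2 of the 12 lower genes with a like change in females, at -2.35 and -1.61 on the log2 scale. In males A2ml1 was -3.12, and -2.51 without male WT replicate 2.

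Ces2b, a carboxylesterase that cleaves ester drugs and lipids, had 1272 and 488 counts in male WT against 46 and 17 in male NT-KO, with a log2 difference of -4.76 (SE 0.570, quasi-likelihood FDR 0.0615 in edgeR). The NT-KO level came near to that of female WT, which had 9 and 27 counts. Cda, the cytidine deaminase of pyrimidine salvage, had 117 and 116 counts in WT against 14 and 13 in NT-KO (log2 fold change -3.16, SE 0.462), although females had 316 to 610. Cad, which carries out the first steps of pyrimidine synthesis, had 949 and 1025 counts against 337 and 482 (-1.35, SE 0.238). Ces2b was -5.70 without male NT-KO replicate 1 and -4.18 without replicate 2. All 3 passed the likelihood ratio test alone, and had a female log2 fold change between -0.14 and 0.29.

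Of the other lower genes, 4 handle protein folding or ER calcium. Hsph1, a heat shock protein that releases nucleotide from Hsp70, had 6609 and 8528 counts in WT against 1802 and 2542 in NT-KO (log2 fold change -1.90, SE 0.277). Hspa1b, the inducible Hsp70, had 1530 and 3139 counts against 446 and 474 (-2.48, SE 0.427), and 62.3% of its 50-base stretches are shared, mostly with Hspa1a, so that these counts may stand for either gene. Hyou1, the nucleotide exchange factor of the ER chaperone BiP, had 12017 and 19878 counts against 3020 and 4727 (-2.17, SE 0.372). Leaving out male WT replicate 2 brought Hspa1b to -1.58 and Hyou1 to -1.48.
Atp2a2, the calcium pump SERCA2 of the ER membrane, was closer between replicates, with 10719 and 11255 counts in WT against 4681 and 5581 in NT-KO (-1.17, SE 0.203). For these 4 genes the quasi-likelihood FDR was 0.123 to 0.160, and all passed the likelihood ratio test. The processed pseudogenes Gm5844, with 59.4% of its stretches shared with Hsp90aa1 and other genes, and Rpl26-ps6 complete the 12.

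The ER chaperone and unfolded protein response list held 28 genes, all measured. By the fit 28 of 28 were lower in male NT-KO, and in 24 (85.7%) both NT-KO libraries were below both WT libraries, against 19.2% of all tested genes. The median log2 fold change was -0.94, against 0.01 over all tested genes, 9 members (32.1%, against 1.56% of all tested genes) passed the likelihood ratio test and 0 the main test. The 9 were Hspa5, Hyou1, Creld2, Manf, Syvn1, Sdf2l1, Pdia4, Dnajb11 and Hspa13, which were partly named after their values were seen.
Creld2, a secreted ER protein with disulphide isomerase activity, had 3732 and 15569 counts in WT against 723 and 911 in NT-KO (log2 fold change -3.76, SE 0.758). Manf, an ER-resident protective factor, had 7331 and 14208 against 2334 and 2681 (-2.24). Syvn1, the ubiquitin ligase of ER-associated degradation, had 6555 and 20057 against 3040 and 2684 (-2.38). In each of these the WT libraries were unequal, with replicate 2 far above replicate 1, while the NT-KO libraries lay close together. Leaving out male WT replicate 2 brought Creld2 to -2.04, Manf to -1.39 and Syvn1 to -1.03. Female WT had 2215 and 1120 counts of Creld2.

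The degree of the shift thus rested on WT replicate 2, and its direction did not. On a log2 scale centred on the 8 libraries, the mean of the list was 0.38 and 1.36 in male WT, -0.32 and -0.25 with NT-KO and between -0.40 and -0.08 in the females. Leaving out male WT replicate 2 gave a median of -0.56, and leaving out replicate 1 gave -1.25. The smallest changes in the list were those of Derl2, Derl1 and the translocon subunit Sec61b, at -0.05, -0.27 and -0.32.
Outside the list, and named after its values were seen, Bhlha15, a transcription factor of secretory cells, had 77 and 469 counts in WT against 13 and 15 in NT-KO, again highest in WT replicate 2. Sec24d, a coat protein of vesicles that leave the ER and likewise named afterwards, differed in another way, with 4912 and 4008 counts in WT against 1385 and 2829, so that its NT-KO libraries were the unequal ones. Its log2 fold change was -1.14, and -0.75 without male NT-KO replicate 1.

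The heat shock list, with chaperones of cytosol and mitochondria, was lower by the fit in 19 of 19 tested genes. In 18 of them (94.7%) the genotypes did not overlap, against the same background of 19.2%, the median log2 fold change was -0.82, and 6 (31.6%, against 1.56% of all tested genes) passed the likelihood ratio test alone (Hspa1b, Hsph1, Hsp90aa1, Hspb1, Hspa4l and Hspa8). Hspa8, the constitutive Hsp70, had 87536 and 91466 counts in WT against 41837 and 45826 in NT-KO, with a log2 difference of -1.10 (SE 0.222), with 39.4% of its stretches shared with other genes. The mitochondrial chaperones moved less, with -0.30 for Hspd1 and -0.38 for Hspe1. The list median kept its sign in each leave-one-out fit, from -1.02 without male WT replicate 1 to -0.54 without male WT replicate 2, and its female median was 0.05.

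The promoters of both lists were searched for the elements that their transcription factors bind, on both strands of the 250 bases before the start of each gene (RefSeq, GRCm38.p6). The ER stress response element ERSE, searched as CCAAT, then any 9 bases, then CCACG, was present in 9 of the 22 ER list genes with a promoter in the table (40.9%), and in 35 of 27018 genes overall (0.13%). The 9 genes were Hspa5, Hsp90b1, Calr, Canx, Pdia6, Dnajc3, Creld2, Syvn1 and Derl3. The heat shock element, searched as GAA, TTC and GAA with any 2 bases between each, was present in 2 of 17 heat shock genes (11.8%), Hspd1 and Hspe1, and in 139 genes overall (0.514%). The place of the match was worked out for Hspe1 and not for Hspd1, so whether both genes hold the same site was not checked. A match is a description of the letters in this window, and no match says nothing of the factor.
The promoters of the ER genes with the largest and the most abundant changes are printed with one of the heat shock genes, 5′ to 3′ on the strand of the gene, with the element in capitals. Creld2 is on the plus strand at chr15:88819396-88819645, Hspa5 on the plus strand at chr2:34771840-34772089 and Hspe1 on the plus strand at chr1:55087898-55088147.
Creld2: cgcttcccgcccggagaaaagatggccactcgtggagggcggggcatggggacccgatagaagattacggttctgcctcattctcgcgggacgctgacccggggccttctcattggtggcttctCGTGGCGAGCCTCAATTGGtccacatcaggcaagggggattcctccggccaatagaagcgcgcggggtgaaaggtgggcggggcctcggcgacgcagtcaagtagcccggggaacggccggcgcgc
Hspa5: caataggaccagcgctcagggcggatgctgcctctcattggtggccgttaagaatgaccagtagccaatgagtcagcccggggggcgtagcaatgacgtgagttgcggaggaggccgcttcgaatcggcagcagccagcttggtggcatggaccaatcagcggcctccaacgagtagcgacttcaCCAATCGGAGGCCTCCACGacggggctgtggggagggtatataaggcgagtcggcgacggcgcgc
Hspe1: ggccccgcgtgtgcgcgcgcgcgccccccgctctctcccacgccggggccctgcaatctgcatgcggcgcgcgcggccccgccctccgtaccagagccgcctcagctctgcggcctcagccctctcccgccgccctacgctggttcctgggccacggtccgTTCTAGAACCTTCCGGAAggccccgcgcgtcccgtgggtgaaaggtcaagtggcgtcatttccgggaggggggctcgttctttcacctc
In Creld2 the element lies on the other strand, from 126 to 108 bases before the start, and in Hspa5 from 65 to 47 bases before it. In Hspe1 a pair of overlapping matches covers 89 to 72 bases before the start. Hspa5, which encodes the chief ER chaperone BiP, had 50869 and 109769 counts in WT against 16500 and 27360 in NT-KO, and Hspe1 had 10385 and 10000 against 7927 and 8434. Neither set of libraries overlapped.

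**Figure D3:**
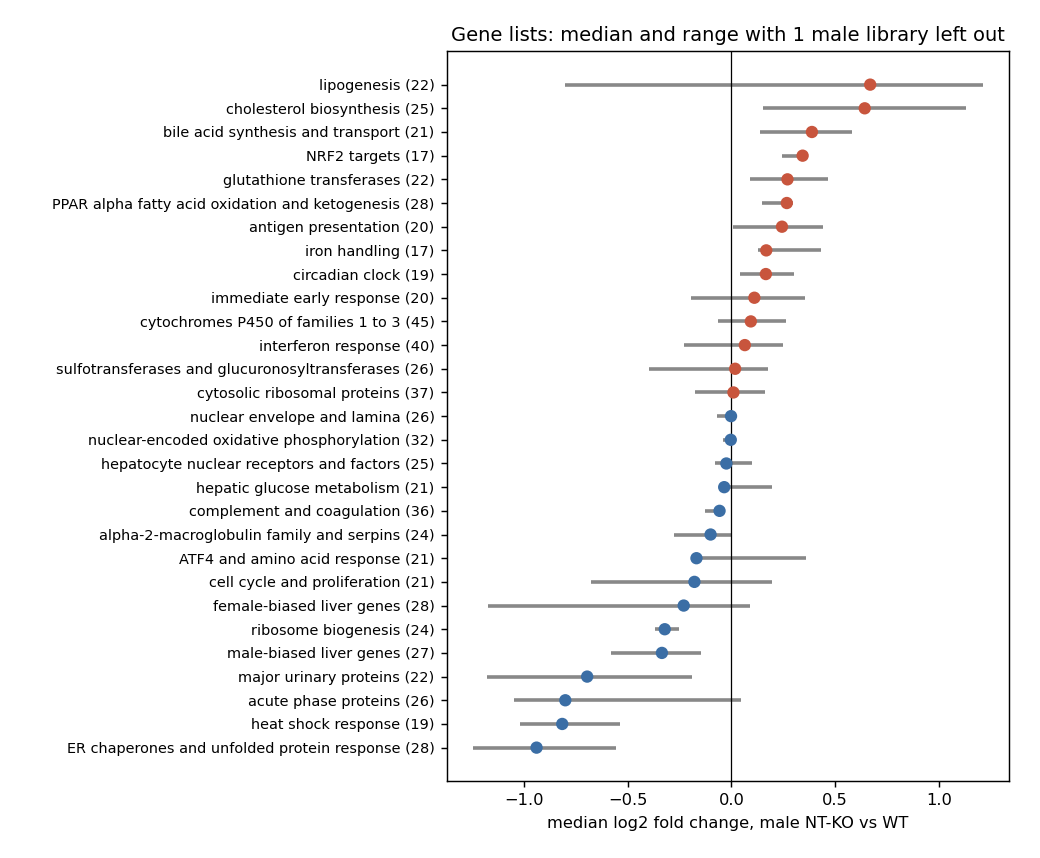
Median log2 fold change of male NT-KO vs WT (points) for 29 gene lists, with the number of tested genes in brackets, and the range of that median when each male library is left out in turn (bars). Among the bars wholly below 0 are those of the ER chaperone, heat shock, ribosome biogenesis, male-biased and major urinary protein lists. Among those wholly above 0 are the NRF2, cholesterol, PPAR alpha and bile acid bars. The bars of lipogenesis and acute phase proteins cross 0.

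Ribosome biogenesis and NRF2 target genes shifted little but evenly across libraries. Of 24 nucleolar factors that process ribosomal RNA, 20 were lower in NT-KO, 16 of them (66.7%) without overlap against 19.2% of all tested genes, with a median of -0.32 that stayed between -0.37 and -0.25 in the leave-one-out fits. Rrp12, which exports ribosomal subunits, had 750 and 552 counts in WT against 403 and 400 in NT-KO (log2 fold change -0.73, SE 0.204). No gene of this list passed either test. The 37 cytosolic ribosomal proteins had a median of 0.01, with values between -0.17 and 0.18, and 32 nuclear genes of oxidative phosphorylation had a median of -0.003.
Targets of NRF2, the factor that induces antioxidant and detoxifying enzymes, were higher in 16 of 17 genes, 12 (70.6%) without overlap against 19.6% of all tested genes. Their median of 0.34 stayed between 0.24 and 0.37. Nqo1, a quinone reductase, had 167 and 74 counts in WT against 194 and 326 in NT-KO, and Nfe2l2, which encodes NRF2 itself, 2526 and 2446 against 3331 and 4282. Hmox1 was the exception at -0.19, and no member passed either test. Glutathione transferases other than Gstp3 were modest, with Mgst3 at 1.03 (475 and 273 counts in WT, 694 and 855 in NT-KO) the other one to pass the likelihood ratio test among 22.

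Sterol and fatty acid genes leaned higher in male NT-KO but mainly through 1 library. All 25 cholesterol synthesis genes were higher by the fit, 14 of them (56%) without overlap against 19.6% of all tested genes, and Msmo1, which removes the methyl groups at position C4 of sterols, passed the likelihood ratio test, with 6237 and 5137 counts in WT against 9166 and 18980 in NT-KO. Hmgcs1, the synthase upstream of mevalonate, had 3433 and 3328 counts in WT, 4472 in NT-KO replicate 1 and 15631 in replicate 2. The list median of 0.64 was 0.15 without male NT-KO replicate 2 and 1.13 without replicate 1.
Lipogenesis genes had a median of 0.67 that became -0.80 without male NT-KO replicate 2, and 4 of 22 (18.2%) were higher without overlap, near the background. Acss2, which makes acetyl-CoA from acetate, showed the split, with 6938 and 4600 counts in WT, 6139 in NT-KO replicate 1 and 33618 in replicate 2.

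Fatty acid oxidation genes under PPAR alpha had a smaller but more even shift. Of 28, 21 were higher, 12 (42.9%) without overlap against 19.6% of all tested genes, with a median of 0.27 that stayed between 0.15 and 0.30 in the leave-one-out fits. The microsomal hydroxylases Cyp4a10 and Cyp4a14 passed the likelihood ratio test alone. Cyp4a14 had 28 and 33 counts in WT against 274 and 77 in NT-KO, and Cyp4a10 had 234 and 136 against 1068 and 374, of which 29.8% of stretches are shared, mostly with Cyp4a31. Acot2, a mitochondrial thioesterase, had 44 and 37 counts against 69 and 110.
In bile acid metabolism 18 of 21 genes were higher, 6 (28.6%) without overlap against 19.6% of all tested genes. Nr0b2, the repressor SHP of bile acid synthesis, passed the likelihood ratio test with 875 and 1156 counts in WT against 4542 and 2074 in NT-KO. Cyp7a1, the rate-limiting enzyme that SHP represses, had 6733 and 5085 counts in WT, 7459 in NT-KO replicate 1 and 19001 in replicate 2, so the genotypes did not overlap. The bile acid receptor gene Nr1h4 had 7305 and 6584 counts against 10337 and 10162.

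Genes that differ between the sexes were among the largest changes, in a mixed pattern. The male WT libraries would serve as control both for the sex difference and for the genotype difference, so no overlap was counted, and the female values are given side by side. Abcd2 had 2276 and 3266 counts in female WT, Prlr 17080 and 20148, Esrrg 211 and 179, and Cyp2g1 817 and 805. In each the male NT-KO libraries lay above male WT and below the females.
Of 28 female-biased genes of the liver list, 13 were higher in male NT-KO and 15 lower, 4 passing the likelihood ratio test upward (Abcd2, Acot3, Acot4 and Atp6v0d2) and 2 downward (Cyp3a41a and A1bg), in all 21.4% against 1.56% of all tested genes. Without overlap 4 were higher (14.3%) and 6 lower (21.4%), near the 19.6% and 19.2% of all tested genes. Acot3, a peroxisomal thioesterase, had 79 and 47 counts in male WT, while male NT-KO had 241 and 845 and female WT 10499 and 15616. Cyp3a41a went the other way, with 43 and 124 counts in male WT, while male NT-KO had 20 and 4 and female WT 27115 and 27627, and 98.6% of its stretches are shared with other genes, mostly Cyp3a41b. The male NT-KO libraries thus did not approach the female level across this list, whose median was -0.23 and ranged from -1.17 without male NT-KO replicate 2 to 0.09 without male WT replicate 2.

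Male-biased genes leaned lower. Of 27, 17 were lower, 9 (33.3%) without overlap against 19.2% of all tested genes, 1 was higher without overlap (Susd4), and the median was -0.34 with a leave-one-out range from -0.58 to -0.15. Mup21, a major urinary protein that carries pheromones, was the member to pass the likelihood ratio test, with 13115 and 16092 counts in WT against 4525 and 6706 in NT-KO, against 264 to 456 in females. Selenbp2 had 178137 and 126159 counts against 76646 and 50103, and C6, a complement protein, 24007 and 15205 against 11857 and 12213.
The 22 major urinary protein genes as a family had a median of -0.70 with 19 lower, which became -0.19 when male WT replicate 2 was left out and -1.18 when male NT-KO replicate 1 was, and the sequences of some members are largely shared (87.5% of stretches for Mup8, against 19.3% for Mup21), so that their reads cannot be assigned to single genes. The list of 25 nuclear receptors and liver factors had a median of -0.02, with 12 genes higher and 13 lower.

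**Figure D4:**
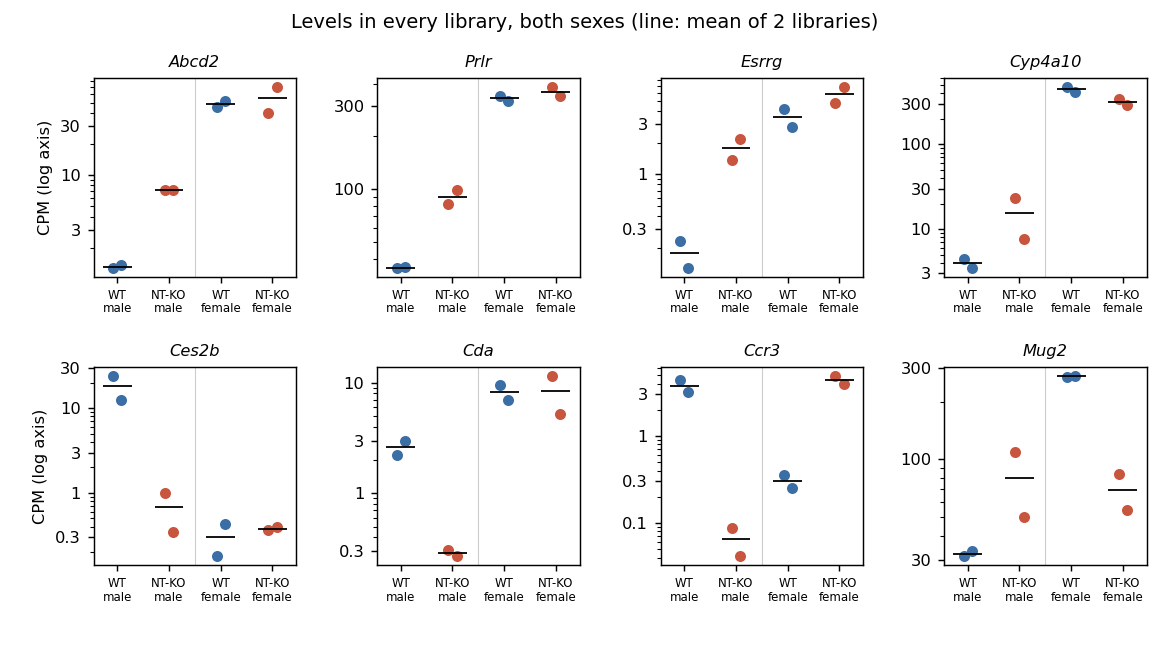
CPM in every library on a log axis for 8 genes in both genotypes of each sex (blue WT, red NT-KO, line at the mean of 2 libraries). Abcd2, Prlr, Esrrg and Cyp4a10 have male NT-KO between male WT and the females, Ces2b has male NT-KO near the females, Cda has male NT-KO below each other group, and Ccr3 and Mug2 move in opposite directions in the sexes.

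The difference between the sexes was tested in the same fit, as the male minus the female effect of NT-KO. It passed the FDR in 2 genes (0.0152%), Ccr3 and Gstp3, and under the likelihood ratio test in 46 (0.351%), with 7.2% of genes at an unadjusted p under 0.05. The next genes by p were Ppp1r9a, Mug2 and Ces2b. For Ppp1r9a the difference was 1.85 on the log2 scale (SE 0.243, quasi-likelihood FDR 0.241 in edgeR), with female counts of 342 to 484 in all libraries. Mug2, a murinoglobulin of the alpha-2-macroglobulin family, had 1631 and 1305 counts in male WT against 4979 and 2411 in male NT-KO, but 13520 and 17164 in female WT against 4412 and 3301 with NT-KO. It was higher in both male and lower in both female NT-KO libraries, with a difference of 3.27 (SE 0.505, quasi-likelihood FDR 0.573 in edgeR), and 50.5% of its stretches are shared, mostly with Mug-ps1.

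Acute phase proteins, which the liver secretes in inflammation, were lower in 22 of 26 genes, 9 (34.6%) without overlap against 19.2% of all tested genes, with a median of -0.80. This too depended on WT replicate 2, without which the median was 0.05. The serum amyloid genes show it, since Saa1 had 6459 and 77722 counts in WT against 1570 and 13627 in NT-KO, so the genotypes overlapped.
Some members did separate. Saa4, the constitutive serum amyloid, had 30423 and 47577 counts in WT against 12998 and 14022 in NT-KO, and the iron reductase gene Steap4 had 15636 and 9551 against 3842 and 6591. Both, with the cytokine signalling inhibitor gene Socs3, passed the likelihood ratio test alone. Fga, the fibrinogen alpha chain, was lower in each NT-KO library by a nearly constant factor, with 196720 and 156357 counts against 86150 and 99174 (log2 fold change -0.98, SE 0.186), and stayed between -1.03 and -0.92 with a library left out.
Serpina10, an inhibitor of coagulation factor X, had 15747 and 20053 counts against 8921 and 9856, and Serpina7, the thyroxine-binding globulin, was higher, with 349 and 264 against 528 and 1268. Complement and coagulation genes as a list stood at -0.06, with 8 of 36 (22.2%) lower without overlap, near the 19.2% of all tested genes, and 0 DEGs under either test.

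Of 17 iron genes, 5 were higher (29.4%) and 3 lower (17.6%) without overlap, against 19.6% and 19.2% of all tested genes, and 2 (11.8%, against 1.56%) passed the likelihood ratio test. These were Bmp6 and Id1. Bmp6, the ligand that informs hepatocytes of iron stores, had 102 and 46 counts in WT against 175 and 203 in NT-KO (log2 fold change 1.35, SE 0.280), and Id1, a target of bone morphogenetic proteins, had 205 and 143 against 1592 and 400 (2.51, SE 0.671). Id1 was 1.12 without male NT-KO replicate 1. Slc11a2, the importer DMT1, had 1831 and 1580 counts against 1149 and 1357, and the list had a median of 0.17.
Gdf15, a hormone released by stressed cells, passed the likelihood ratio test with 21 and 53 counts in WT against 187 and 130 in NT-KO. The ATF4 list to which it belongs had a median of -0.17, which became 0.36 when male WT replicate 2 was left out, with 10 genes higher and 11 lower, among them the mitochondrial folate enzyme gene Mthfd2 at 137 and 111 counts in WT against 64 and 61 in NT-KO.

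Of 19 clock genes, 6 were higher (31.6%) and 5 lower (26.3%) without overlap, against 19.6% and 19.2% of all tested genes, with a list median of 0.17. Per3 had 2544 and 1896 counts in WT against 3371 and 3581 in NT-KO, Dbp, a clock output factor, 1612 and 1305 against 3183 and 2639, and Cry1 979 and 762 against 460 and 516. None passed both thresholds of either test. Hour of collection is not given in the labels, and its part in these values was not tested.
Nuclear envelope and lamina genes, the company of LBR, had a median of -0.002 over 26 genes, 12 higher and 14 lower. Without overlap there were 5 in each direction (19.2% each), near the 19.6% higher and 19.2% lower of all tested genes. Nrm, which encodes nurim, a membrane protein of the nuclear envelope, had 22 and 17 counts in WT against 55 and 41 in NT-KO. Its log2 fold change was 1.26 (SE 0.363, quasi-likelihood FDR 0.274 in edgeR). Syne1 had 987 and 929 counts against 725 and 720, and Sun2 2919 and 1604 against 3481 and 2893.
Interferon response (40 genes), antigen presentation (20 genes) and cell cycle lists (21 genes) had medians of 0.06, 0.24 and -0.18 and no DEG under either test. With 1 male library left out these medians ran from -0.23 to 0.25, from 0.01 to 0.44 and from -0.68 to 0.20, so that the sign of the interferon and cell cycle medians turned on single libraries. Irf7 had 1385 and 1195 counts in WT against 2252 and 1699 in NT-KO, H2-Ab1 684 and 714 against 1218 and 829, and Ccne1 268 and 279 against 181 and 139. Lists of glucose metabolism (21 genes), cytochromes P450 of families 1 to 3 (45 genes) and sulfo- and glucuronosyltransferases (26 genes) stood at medians of -0.03, 0.09 and 0.02, with leave-one-out ranges from -0.06 to 0.20, from -0.07 to 0.26 and from -0.40 to 0.18.

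Among cell type markers, those of B lymphocytes and plasma cells were higher in 8 of 8 tested genes, 7 (87.5%) without overlap against 19.6% of all tested genes. Immunoglobulin genes carried it, with Ighm at 279 and 111 counts in WT, 359 in NT-KO replicate 1 and 2522 in replicate 2, for a log2 fold change of 2.87 that was 0.94 without male NT-KO replicate 2. Igkc, Jchain and Ighm passed the likelihood ratio test alone, and 4 of 7 immunoglobulin constant genes did, Igkc and Ighm among them, against 1.56% of all tested genes. The B cell receptor genes Cd79a and Cd79b were at 0.50 and 0.73.
Hbb-bs had 22140 and 8001 counts in WT against 6916 and 7069 in NT-KO, and its log2 fold change of -1.07 was -0.46 without male WT replicate 1. Cholangiocyte markers were mixed, with 4 of 6 tested genes higher, 2 lower and a median of 0.16, while Spp1, the most abundant, had 2094 and 1836 counts against 1095 and 1352. Kupffer cell markers summed to 219 and 339 CPM in WT against 367 and 284 in NT-KO, sinusoidal endothelial markers to 321 and 215 against 365 and 303, and stellate cell markers to 339 and 296 against 311 and 400, so the genotypes overlapped in all 3. Markers of T and NK lymphocytes, neutrophils, monocytes and dendritic cells, and adipocytes stayed under 20 CPM in sum in each male library. The part that these cells have in the values of other genes was not tested.

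Genes around Lbr were looked at because the edited allele is inherited with its neighbours. Of 224 tested genes within 20 Mb of Lbr, 0 passed the main test and 6 the likelihood ratio test (2.68%, against 1.54% of all other genes). An unadjusted p under 0.05 was found in 18.8% of them, against 11.4%, and the male genotypes did not overlap in 50.4%, against 38.7%. Single chromosomes also varied. Among the other autosomes and X, taken whole, the likelihood ratio share reached 2.43% on chromosome 15. The share at an unadjusted p under 0.05 reached 15% on chromosome 6, and that without overlap 42% on chromosome 12. Within 10 Mb the share without overlap was 57.1% of 119 genes, with 3 DEGs of the likelihood ratio test. None of the 224 passed that test in females.
Among the 6 were Esrrg, Mgst3, Fmn2, 3110045C21Rik and Ifi202b, and the last 3 were named after their values were seen. Fmn2, an actin nucleator, had 92 and 66 counts in WT against 21 and 12 in NT-KO. The antisense RNA 3110045C21Rik had 40 and 29 against 74 and 141.
Ifi202b, an interferon-inducible gene known to differ between mouse strains, had 62 and 58 counts in male WT, whereas both male NT-KO libraries had 0. Set against a floor of 3 counts per library, it was at least 20.8-fold lower. In females it had 0 in both WT libraries and 73 and 0 in NT-KO. It was thus present in 3 of the 8 libraries, without following the genotype. The same libraries, both male WT and female NT-KO replicate 1, were the highest for Mid1, Mid1-ps1, Gm8730, Gm13736 and B430219N15Rik. These lie on other chromosomes, passed the likelihood ratio test alone and were named after their values were seen. Mid1 reached 2088, 1870 and 731 counts there, against 97 to 169 elsewhere, and its male log2 fold change was -3.94. Whether such genes track single animals was not tested.

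**Figure D5:**
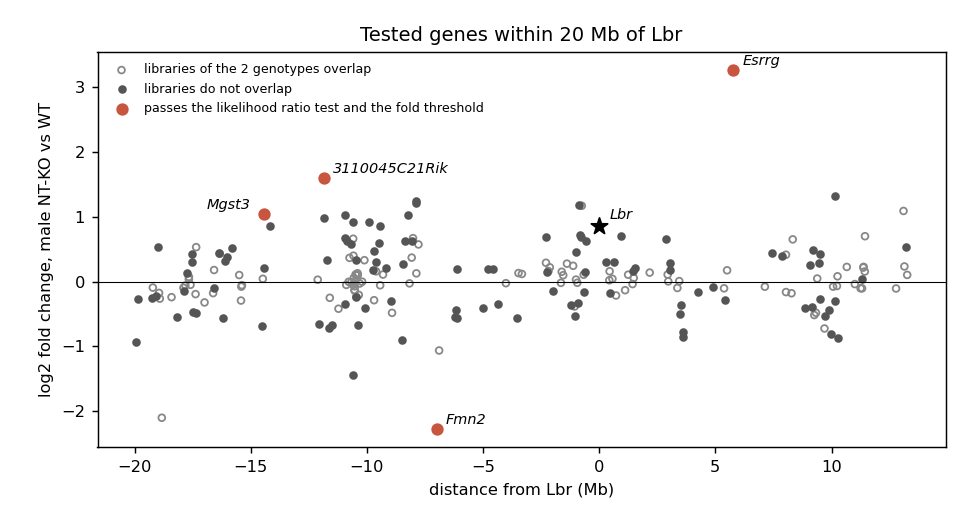
Log2 fold change of male NT-KO vs WT for tested genes within 20 Mb of Lbr (star), by distance in Mb, negative towards the start of the chromosome. Filled points are genes whose male genotypes do not overlap (50.4% of 224), red points pass the likelihood ratio test and the fold threshold, and 4 of the 6 such genes are drawn, Ifi202b being left out because it had no count in male NT-KO.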

How the data were processed

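Read trimming by cutadapt, alignment to GRCm38 by STAR (version 2.6.1a per the labels) and counting per Ensembl gene by featureCounts were done by the authors. The deposited counts are raw, for 49671 genes, and 0 columns were left unused. Strand setting and treatment of reads that match several genes are not given in the sources used here, and the library kit does not mark strand, so overlapping and near-identical genes are uncertain. Sharing was measured as the percentage of 50-base stretches of a gene's GENCODE transcripts found in another gene.

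Genes that reached 1 CPM in 2 or more of the 8 libraries were kept, without rRNA, miRNA and mitochondrial genes. The 13117 tested genes hold 91.8% to 92.9% of the counts. With R 4.3.3 and edgeR 4.0.16, TMM scaling and 4 group means were fitted to all 8 libraries (common biological coefficient of variation 0.217) and tested by quasi-likelihood, with the likelihood ratio test and DESeq2 1.42.0 as alternatives and Benjamini-Hochberg adjustment. SE is the log2 fold change over the square root of F. An exact permutation test of 2 against 2 cannot go below p = 0.333. Squared differences between replicates of a group were 112 to 278 times those of sampling noise (chi-square per degree of freedom). This value was taken over all tested genes without TMM scaling, and abundant genes weigh most in it. Intervals and floors cover counting error only. The quasi-likelihood and likelihood ratio tests, but not DESeq2, were checked on simulated counts.

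Named genes follow a rule: Lbr, the 12 higher and 12 lower genes with the smallest quasi-likelihood p among those with an absolute log2 fold change over 1 and no overlap, 5 genes for the difference between the sexes, 3 per list and the most abundant of each marker list. Others were named after their values were seen. The members, lists and rule were chosen with earlier results of these data known. Lists are described by counts and medians, without a test. Alternatives were other size factors, filters, a replicate block, the male libraries alone, another window around Lbr and each library left out. Some single-gene results are not reported here.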

Additional observations from a re-analysis of the deposited data

Results flagged for a closer look

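The effect of NT-KO differed between the sexes for Ccr3 and Gstp3, each by the test of the difference itself in the quasi-likelihood fit of all 8 libraries. For Ccr3 the male minus the female effect was -9.70 on the log2 scale (SE 0.566, quasi-likelihood FDR 0.0014 in edgeR), lower in 2 of 2 male and higher in 2 of 2 female NT-KO libraries. For Gstp3 it was 5.44 (SE 0.411, quasi-likelihood FDR 0.00543), with both male NT-KO libraries above both male WT libraries and a female log2 fold change of -0.16 (SE 0.273). Counts of Ccr3 were 260 and 238 for female NT-KO, near the 228 and 126 of male WT, and 18 and 16 for female WT. Whether its pattern follows single animals and not the genotype was not tested.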

How the results depend on the processing

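In the male comparison the count of DEGs was 2 in the quasi-likelihood test and 205 with the likelihood ratio test, 218 with DESeq2, 4 with library size only, 667 with no filter beyond 1 count and 6 with filterByExpr. RLE size factors and the FDR alone gave 2, and the male libraries alone gave 3. With 1 library left out it ranged from 2 to 27, with 27 without male WT replicate 1, 7 without either female NT-KO library, and 6 and 4 when male NT-KO replicate 1 or 2 was dropped. The likelihood ratio test gave 304, 142, 211 and 314 DEGs when male WT replicate 1, male WT replicate 2, or the first or the second male NT-KO library was dropped, of which 136, 76, 90 and 125 were among the 205. The difference between the sexes was found in 2 genes, in 46 with the likelihood ratio test, in 62 with DESeq2 and in 1 to 7 with 1 library left out (4 when male WT replicate 1 was dropped, 5 for the second male NT-KO library, and 1 and 7 for those of female NT-KO). Near Lbr the count was 0, and 6 with the likelihood ratio test. With the replicate number as a block the male count was 3 and the difference between the sexes 2. Deviations of same-numbered libraries correlated at -0.0067 in males and 0.023 in females, so the numbers are not taken as pairs. Across single genes and settings, 1552 values kept direction and side of the threshold, 220 passed it only in the alternative, 1 lost it (Ccr3, quasi-likelihood FDR 0.0535 when the second male NT-KO library was dropped) and 1 reversed. The last was Myc, at -2.95 and from -3.86 to 0.12 with 1 library left out, the 0.12 without male WT replicate 1. Of 111 genes followed through these settings, the fold of 34 moved by over 1.5 times with 1 library left out. The causes were not tested. Ccr3 gave no value without male NT-KO replicate 1. With library size only, the median of all genes was 0.08 in place of 0.01. With 2 libraries a group, precision is limited by the spread between livers and not by depth, 1 count being 0.0155 to 0.0222 CPM of the total counts before scaling.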
